A study of Mus musculus with 12 samples.

Results

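The regions described here are the places where the transcription factor MYC was listed as bound in untreated RAW264.7 cells or after RANKL, a cytokine of the TNF family that turns precursors of the monocyte lineage into osteoclasts. They comprise 611 chromatin immunoprecipitation (ChIP-seq) peaks, 312 from the untreated MYC list and 299 from the RANKL MYC list, out of 63578 peaks in the 8 lists of the series. A peak of one list was matched to a peak of the other where they shared at least 1 bp. Matched peaks are called shared, and the others untreated-only or RANKL-only. These names refer to the lists, because a place missing from a list is not shown to be unbound.

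RAW264.7 is an established mouse macrophage line, and the source label of these libraries reads bone marrow. Untreated cells were compared with cells given RANKL at 50 ng/ml, and MYC and MAX were each precipitated from both. The treatment time was 4 h. The lists of cells given the BET inhibitor I-BET at 500 nM, alone or with RANKL, served only to look up the same places. Each antibody and treatment has 1 library, so no difference between treatments has a replicate check and none carries a p-value. Exact Clopper-Pearson 95% intervals are given for shares and cover counting error only. Read depth is unknown from the peak lists, and the 4 input libraries were not used here.

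MYC is a basic helix-loop-helix leucine zipper protein that binds DNA as a dimer with MAX. The dimer prefers the E-box CACGTG, and MAX also pairs with the repressors of the MXD family, MNT and MGA, so a MAX peak need not hold MYC. Best known among MYC targets are the genes that make ribosomes, translate proteins and supply nucleotides. In the monocyte lineage, RANKL acts through the receptor RANK, NF-kB and AP-1 to raise NFATc1, the regulator of the osteoclast programme.

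The promoters shown first carry the E-box and have a peak of each class over the start, and they let the letters be read beside the ranks that follow. Each is 80 bases from upstream of an annotated start, 5′ to 3′ on the strand of the gene, from the RefSeq promoter table (GRCm38.p6), with CACGTG in capitals. Within each class they were taken in order of rank from the genes that the naming rule picks and that have a peak over the start and this motif. Promoters outside that rule can rank higher, as Hnrnpf at 160 among RANKL-only and Prmt3 at 132 among untreated-only peaks. The 4 shared ones are G6pc3 (a glucose-6-phosphatase, chr11:102189583-102189662, plus strand), Gtf2ird2 (a transcription factor of the TFII-I family, chr5:134183918-134183997, plus strand), Zbtb25 (a zinc finger protein, chr12:76369542-76369621, minus strand) and Ran (the GTPase of nuclear transport, chr5:129020001-129020080, plus strand).
G6pc3: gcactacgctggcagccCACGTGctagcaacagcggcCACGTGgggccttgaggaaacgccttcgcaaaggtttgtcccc
Gtf2ird2: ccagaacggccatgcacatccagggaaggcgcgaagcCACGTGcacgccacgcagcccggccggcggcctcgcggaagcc
Zbtb25: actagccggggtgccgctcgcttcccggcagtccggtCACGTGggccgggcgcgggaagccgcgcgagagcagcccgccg
Ran: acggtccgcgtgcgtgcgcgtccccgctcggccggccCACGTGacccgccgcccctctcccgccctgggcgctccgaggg

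The next 4 lie under untreated-only peaks. They belong to Atf7 (a bZIP transcription factor, chr15:102625569-102625648, minus strand), Nudt9 (a Nudix hydrolase, chr5:104046688-104046767, plus strand), Dolk (dolichol kinase, whose peak it shares with Nup188, chr2:30286355-30286434, minus strand) and Cdk7 (the kinase of the CAK complex and TFIIH, chr13:100731000-100731079, minus strand).
Atf7: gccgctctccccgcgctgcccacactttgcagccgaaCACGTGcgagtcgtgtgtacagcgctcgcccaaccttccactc
Nudt9: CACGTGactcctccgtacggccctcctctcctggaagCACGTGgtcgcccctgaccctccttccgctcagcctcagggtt
Dolk: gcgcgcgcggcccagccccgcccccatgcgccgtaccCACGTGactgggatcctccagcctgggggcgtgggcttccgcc
Cdk7: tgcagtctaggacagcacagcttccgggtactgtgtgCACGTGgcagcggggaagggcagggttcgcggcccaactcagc

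The last 4 have RANKL-only peaks over the start, of which that at Eif4g1 does not reach the motif. They belong to Pigw (an enzyme of GPI anchor synthesis, chr11:84880235-84880314, minus strand), Tspan4 (a tetraspanin, chr7:141476292-141476371, plus strand), Timm9 (a chaperone of mitochondrial import, chr12:71136691-71136770, minus strand) and Eif4g1 (the scaffold of the eIF4F cap complex, chr16:20672636-20672715, plus strand).
Pigw: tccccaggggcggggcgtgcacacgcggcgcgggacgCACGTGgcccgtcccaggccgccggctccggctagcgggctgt
Tspan4: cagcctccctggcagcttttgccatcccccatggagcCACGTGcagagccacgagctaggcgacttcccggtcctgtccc
Timm9: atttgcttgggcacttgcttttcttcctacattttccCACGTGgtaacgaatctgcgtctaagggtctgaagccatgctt
Eif4g1: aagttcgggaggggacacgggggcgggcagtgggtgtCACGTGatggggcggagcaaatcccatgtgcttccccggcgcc

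In 11 of the 12 promoters every printed CACGTG lay inside the MYC peak. The exception was Eif4g1, where the motif ended at position 20672678 on chromosome 16 and the peak began at 20672699. G6pc3 and Nudt9 each hold 2 copies in the stretch shown. The intervals of the 3 classes overlap for this motif: 33 of 83 promoter windows under shared peaks held CACGTG (39.8%, 29.2 to 51.1), 28 of 87 under untreated-only peaks (32.2%, 22.6 to 43.1) and 27 of 86 under RANKL-only peaks (31.4%, 21.8 to 42.3). These windows came from 74, 82 and 78 genes. Some overlap and hold the same copy of the motif, as at Dolk and Nup188, which the intervals do not allow for. A window here runs from 250 bases before to 50 bases after an annotated start, both strands were searched, and 7.84% of all 21262 windows of protein-coding genes held the motif. Under MAX peaks of untreated cells the share was 17.9%, and under the 1000 highest-ranked of them 30.3%. The variant CACGCG was found in 49.4%, 40.2% and 41.9% of windows of the 3 classes, against 12.1% of all windows, and CATGTG in 9.64%, 9.2% and 6.98% against 11.5%. Both CACGTG and CACGCG stood in 15, 6 and 9 windows of the classes. These matches describe letters in a window and do not mark sites of binding.

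About as many untreated peaks were listed again with RANKL as were not. Shared were 149 of 312 untreated peaks (47.8%, 42.1 to 53.5) and 147 of 299 RANKL peaks (49.2%, 43.4 to 55.0), which left 163 untreated-only and 152 RANKL-only peaks. The numbers of shared peaks differ because 2 RANKL peaks each spanned 2 untreated ones, one at Hspd1 and Hspe1 and the other at Rn18s-rs5 on chromosome 17. Peaks near the top of a list were mostly shared. By the authors' score, 40 of the 50 highest-ranked untreated peaks and 41 of the 50 highest RANKL peaks were shared, against 14 and 11 of the 50 lowest. The median rank was 108 for shared and 200 for untreated-only peaks in the untreated list, and 100 for shared and 191.5 for RANKL-only peaks in the RANKL list.

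**Figure D1:**
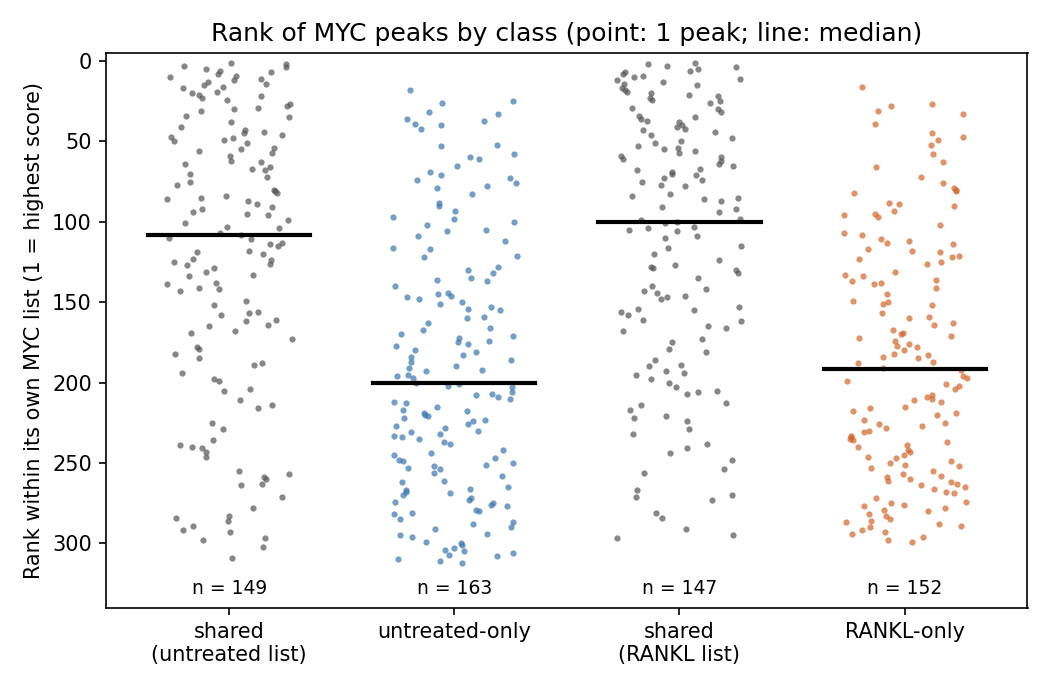
Each point is 1 MYC peak, placed by its rank within its own list (1 is the highest score, axis reversed), and the black lines are medians. Shared peaks fill the top ranks of both lists, with medians of 108 and 100, while untreated-only and RANKL-only peaks start at rank 18 and rank 16.

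Few places were near misses of the matching rule. Of the untreated-only peaks 7 had a RANKL peak within 1 kb, and of the RANKL-only peaks 2 had an untreated one. For the others the nearest peak of the other list was far away, with a median distance of 1410670 bp for all untreated-only and 1502840 bp for all RANKL-only peaks. At Slc19a1, the reduced folate carrier, an untreated-only peak of rank 282 (chr10:77033127-77033329) and a RANKL-only peak of rank 88 (chr10:77033681-77033931) lay 351 bp apart. Noc2l, a nucleolar protein of ribosome assembly, had 3 untreated peaks in a row at ranks 39, 53 and 127, of which the one over its start was shared and held rank 194 with RANKL. The other near misses of untreated-only peaks included Prmt3, an arginine methyltransferase of ribosomal protein S2, Pa2g4, and a stretch next to the shared peak of Arsg and Slc16a6.

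Among the shared peaks the order of ranks was only loosely kept. Over the 149 pairs Spearman's rho between both ranks was 0.373, as a description of 2 libraries that share the genome and the calling procedure. Within 20 ranks of each other lay 37 pairs, and 45 pairs lay over 100 ranks apart. In 97 pairs the RANKL peak was the wider one, with a median width ratio of 1.13. Median widths of all MYC peaks were 260 bp untreated and 307 bp with RANKL. All MAX peaks also had a larger median width with RANKL, 483 bp against 443 bp untreated. The top pair held rank 1 in both lists (chr5:142367479-142367951 in untreated cells). Pemt, phosphatidylethanolamine methyltransferase, held rank 4 in both (chr11:60046335-60046683 in untreated cells). Hk2 (hexokinase 2) at 110 and 106, Eif4a2 (an RNA helicase of the eIF4A family) at 54 and 50 and Rpl10a at 50 and 57 also kept close ranks.

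Others stood far apart. Prcc, a nuclear protein linked to splicing, held rank 229 in untreated cells and 7 with RANKL, and its MAX peaks ranked 8382 of 8839 and 5833 of 10889. Rgl1 (a Ral guanine nucleotide exchange factor) went from 302 to 64 and Slc20a1 (a phosphate transporter) from 257 to 65. In the other direction Ran held rank 47 and then 291, Arsg with the transporter gene Slc16a6 13 and 229, Calm3 (calmodulin) 19 and 217, and Rrp1b (a nucleolar protein) 10 and 203. The promoter of Hspd1 and Hspe1, the mitochondrial chaperonin pair, carried untreated peaks of rank 17 and 111 and 1 RANKL peak of rank 195 across both. Fasn, fatty acid synthase, stood at 35 and 168. The genes of this paragraph were picked after their ranks were seen, as the ends of the range, apart from those that belong to a list or to a named neighbour pair.

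**Figure D2:**
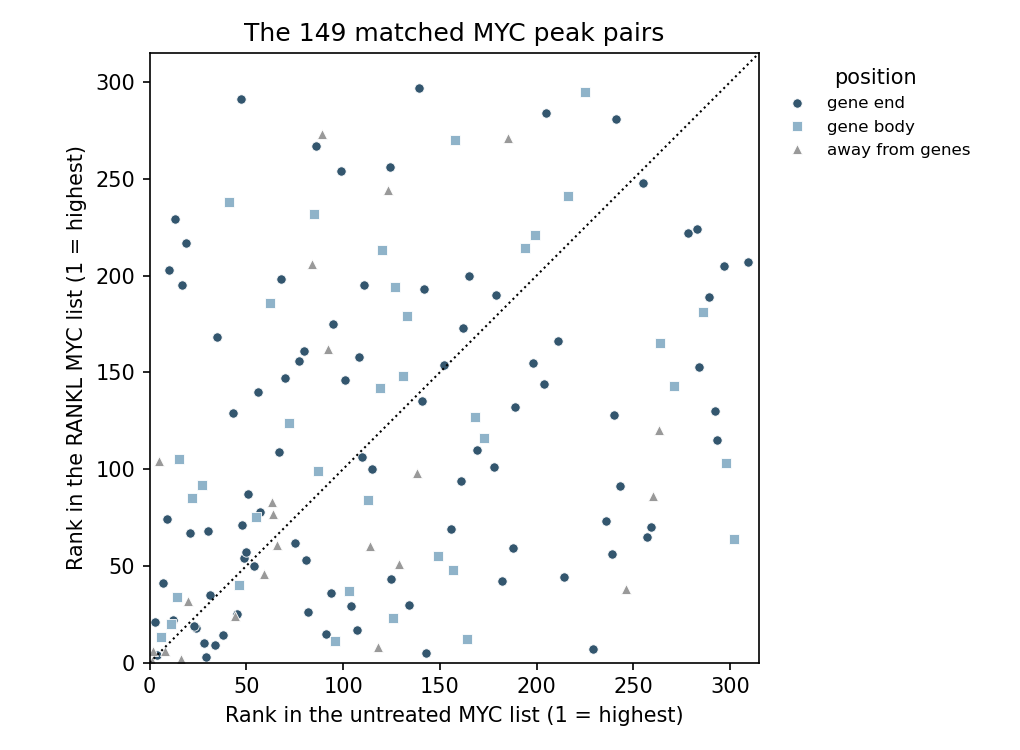
Each point is 1 of the 149 matched pairs, with its rank in the untreated list on the horizontal axis and in the RANKL list on the vertical axis; the shape gives its position and the dotted line marks equal ranks. Points spread widely around the line, and 45 pairs lie over 100 ranks from it.

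The classes lay in similar places of the genome. Near a gene end, that is no more than 1 kb from either boundary of a protein-coding gene, were 89 of 149 shared peaks (59.7%, 51.4 to 67.7), 102 of 163 untreated-only peaks (62.6%, 54.7 to 70.0) and 93 of 152 RANKL-only peaks (61.2%, 53.0 to 69.0). Inside a gene and away from its ends were 24.8%, 25.8% and 18.4%, and away from protein-coding genes 15.4%, 11.7% and 20.4%. All intervals overlap between classes. For comparison, 52.1% of all MAX peaks of untreated cells and 50.5% of those with RANKL lay at gene ends, and 67.0% and 68.8% of the 500 highest-ranked. A gene end in this annotation can be the start or the 3′ end. Within 1 kb of an annotated start with known strand were 86.5% of the shared peaks at gene ends (77.6 to 92.8). It was 72.5% of the untreated-only (62.8 to 80.9) and 80.6% of the RANKL-only ones (71.1 to 88.1), and these intervals overlap. Peaks on chromosome 18 stayed in these totals although its starts were not used.

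**Figure D3:**
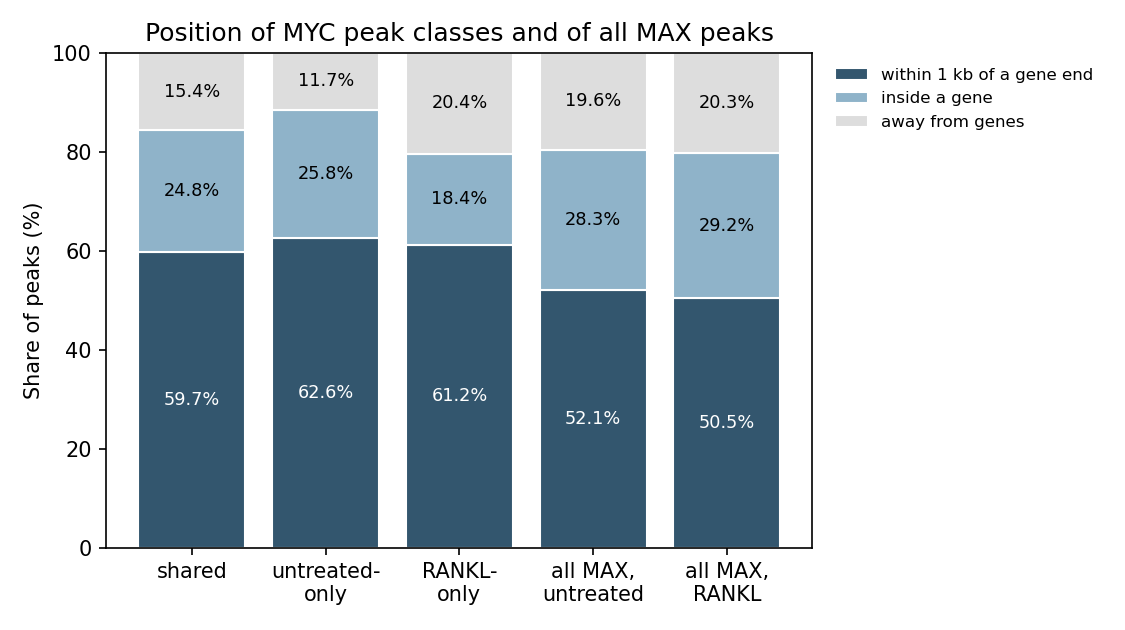
Bars give the percent of peaks within 1 kb of a gene end, inside a gene or away from protein-coding genes, for the 3 MYC classes and for all MAX peaks of either treatment. The 3 MYC classes hold between 59.7% and 62.6% at gene ends, above the 52.1% and 50.5% of all MAX peaks.

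MAX was listed at nearly all of these places in both treatments, whichever list MYC was in. A MAX peak overlapped in both MAX lists at 139 of 149 shared peaks (93.3%, 88.0 to 96.7), 152 of 163 untreated-only peaks (93.3%, 88.2 to 96.6) and 139 of 152 RANKL-only peaks (91.4%, 85.8 to 95.4). By comparison, 82.0% of all untreated MAX peaks were listed again with RANKL and 66.0% the other way round, and all of the 500 highest-ranked in either list. A MAX peak in the list of the MYC peak's own treatment and not in the other occurred at 0 of 163 untreated-only peaks, which allows a share of up to 1.84% if 3 counts are taken as the limit for a count of 0 (the exact upper bound is 2.24%), and at 2 of 152 RANKL-only peaks (1.32%, 0.16 to 4.67). All 93 RANKL-only peaks at gene ends and all 28 inside genes had MAX in both lists. Away from genes it was 18 of 31, and 11 of 31 had MAX in neither.

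Those 11 RANKL-only peaks without MAX lay at ranks 33 to 294. Of them 6 sat as pairs within 5 kb of each other, at the tip of chromosome 9 (chr9:3000138-3000568 and chr9:3001165-3001484), on chromosome 2 (chr2:98662262-98662889 and chr2:98666695-98667208) and on chromosome 14 (chr14:19415715-19416141 and chr14:19419195-19419579). The highest-ranked, at chr4:88641079-88641350, held rank 33. Signal at these places in the input libraries was not tested.

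The rank of MAX at these places moved with the class of the MYC peak. Ranks were compared over the 7139 MAX regions found in both MAX lists, renumbered within that set so that list length plays no part. Of all of them 49.7% stood nearer the top with RANKL. At untreated-only MYC peaks it was 51 of 151 (33.8%, 26.3 to 41.9), at shared peaks 61 of 138 (44.2%, 35.8 to 52.9) and at RANKL-only peaks 91 of 139 (65.5%, 56.9 to 73.3). The median shift towards the top with RANKL was -136 places at untreated-only, -9.5 at shared and 178 at RANKL-only peaks, against -4 over all regions. Intervals for untreated-only and RANKL-only peaks do not overlap. Some MAX regions count in several classes, because peaks of different classes fall on them. The region at Slc19a1, for example, counts as untreated-only and as RANKL-only. The comparison is of regions within 4 libraries, and whether the MYC and MAX libraries of a treatment came from the same culture is not stated in the labels.

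The same order of the classes appeared at each kind of place. At gene ends 35.7% of regions under untreated-only, 47.1% under shared and 62.4% under RANKL-only peaks stood nearer the top with RANKL. Inside genes it was 37.8% (22.5 to 55.2), 45.5% and 64.3% (44.1 to 81.4). Away from genes it was 12.5% (of 16 regions), 30% (of 20 regions) and 83.3% (of 18 regions). Inside genes the intervals of untreated-only and RANKL-only peaks overlap. Those of shared and untreated-only peaks overlap at every kind of place. Single genes went both ways. At the untreated-only peak of Ccnd1, cyclin D1, MAX ranked 194 of 8839 untreated and 375 of 10889 with RANKL, and at that of Dkc1, the pseudouridine synthase of box H/ACA particles, 1320 and 4357. At the RANKL-only peak of Odc1, ornithine decarboxylase, MAX ranked 517 and 126, and at Ddx18, a nucleolar helicase, 733 and 154. Against the class, MAX at the RANKL-only peak of Eif1ad and Banf1 ranked 665 and 1556, and at the untreated-only peak of Srm, spermidine synthase, 213 and 128.

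**Figure D4:**
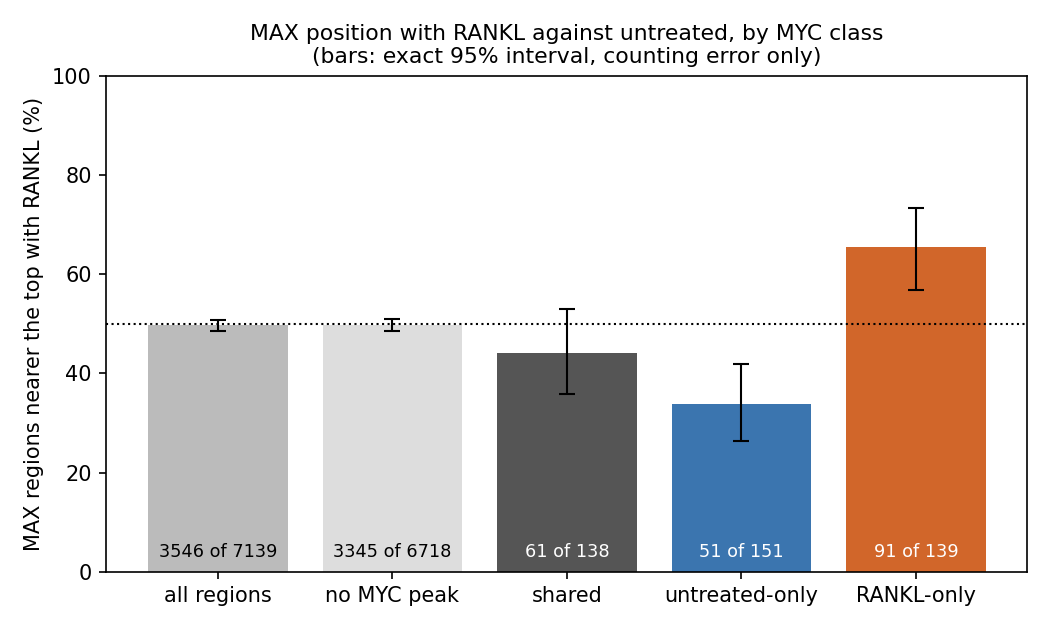
Bars give the percent of MAX regions that stood nearer the top of the MAX ranking with RANKL than without, for all regions in both MAX lists, those without a MYC peak and those under each MYC class; error bars are exact 95% intervals for counting error and the dotted line marks 50%. Untreated-only places stand at 33.8% and RANKL-only places at 65.5%, on either side of the 49.7% of all regions.

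MAX was also higher in rank at shared places than at the others. The median MAX rank was 228 untreated and 297 with RANKL at shared peaks, 725 and 893.5 at untreated-only peaks, and 941 and 748 at RANKL-only peaks. The I-BET list of MYC held a peak at 26 of 149 shared, 4 of 163 untreated-only and 1 of 152 RANKL-only places. For the list with RANKL and I-BET it was 8, 1 and 1. Over the whole lists, the I-BET list held a peak at 30 of 312 untreated places (9.62%) and 25 of 299 RANKL places (8.36%). No MAX peak overlapped in either MAX list at 3 of those 4 untreated-only places and at the 1 RANKL-only place.

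Counted by gene, 351 of 21883 protein-coding genes had a MYC peak within 1 kb of an end in either list. Of all genes, 0.562% had one in untreated cells only (123 genes), 0.489% in both lists (107 genes) and 0.553% with RANKL only (121 genes). The untreated count includes Cnbp, whose peak is shared (ranks 143 and 5) but reached within 1 kb of the gene in the untreated list alone. Peaks inside a gene do not enter these counts. At Slc19a1 the untreated-only peak of rank 282 was at an end, and the RANKL-only peak of rank 88, 351 bp away, was not. Of the 351 genes, 244 (69.5%, 64.4 to 74.3) had MYC in 1 list only. For MAX, 5179 of all genes (23.7%) had a peak at an end in the untreated list and 6086 (27.8%) with RANKL. MAX peaks in both MAX lists stood at an end of 117 of the 123, 104 of the 107 and 121 of the 121. The 10 highest untreated-only peaks at gene ends were led by Ccnd1 at rank 18 (chr7:144940199-144940442), beyond which came Fam102b at 25, Zdhhc4 with E130309D02Rik at 33, Atf7 at 36, Fam3c at 40 and Ptma (prothymosin alpha) at 42. Specc1, C130050O18Rik, Bcap29 and Lars2 followed at 52, 58, 60 and 61. The 10 highest RANKL-only ones were led by Ctps (CTP synthase) at rank 16 (chr4:120569723-120570282), with MAX at rank 358 untreated and 441 with RANKL. After it came Eif1ad with Banf1 at 28, Pigw with the myosin gene Myo19 at 31, Tmem185b at 39, Eif4a1 (the helicase of the cap complex) at 45 and Ptbp1 (a splicing repressor) at 49. Nedd8 (a ubiquitin-like protein) with Gmpr2, Sec61a1 (the protein channel of the endoplasmic reticulum), Adnp and Rps15a closed the set at 66, 76, 79 and 81.

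Ribosome biogenesis, the longest list, held 20 MYC-bound genes of 99 (20.2%, 12.8 to 29.5). Cytosolic ribosomal proteins held 17 of 81 (21.0%, 12.7 to 31.5), against 1.60% of all genes. The gene lists were chosen with earlier results of these data known, so these shares are a description. Of 99 genes in the ribosome biogenesis list, 3 carried MYC in untreated cells only (3.03%), 10 in both (10.1%) and 7 with RANKL only (7.07%), above the percentages of all genes in each case. Shared were Ncl (nucleolin) at ranks 3 and 21, Nop58 and Nop56 (core proteins of box C/D particles) at 34 and 9 and at 284 and 153, and Gar1 (of box H/ACA particles) at 99 and 254. Nol8 with Cenpp held ranks 28 and 10, Riok2 (a kinase of small subunit maturation) 75 and 62, Nolc1 108 and 158, Ppan 204 and 144, and Gnl3 (nucleostemin) 293 and 115. In untreated cells only came Bop1 (of the large subunit PeBoW complex, sharing its peak with the heat shock factor gene Hsf1) at 76, Dkc1 at 122 and Polr1b, which belongs to RNA polymerase I, at 268. The RANKL-only members were the helicases Ddx18 at 250 and Ddx21 at 209, and members of the small subunit processome and its neighbours, Utp3 at 188, Wdr43 at 255, Wdr36 at 96, Mphosph10 at 283 and Nop14 at 268. These 7 held ranks between 96 and 283 of the RANKL list, and all 7 had MAX in both lists. MAX stood at 85 of the 99 genes untreated (85.9%) and at 90 with RANKL (90.9%), against 23.7% and 27.8% of all genes.

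Cytosolic ribosomal protein genes divided evenly, with 5 of 81 in untreated cells only (6.17%), 6 in both and 6 with RANKL only (7.41% each). Rpl32 held ranks 107 and 17, Rpl5 188 and 59, Rpl12 162 and 173 and Rpl13a 172 and 164. The untreated-only genes included Rps7 at 136, Rplp2 (a stalk protein) at 170, Rpl13 at 231 and Rpl38 at 266, and the RANKL-only genes included Rps15a at 81, Rpl7a at 196, Rps3a1 at 199, Rps19 at 242 and Rpl23 at 259. Rpl13a counts as bound in both lists through different peaks, since its untreated peak and its RANKL peak lie at different places.

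Of 51 genes in the list of translation factors, 4 had a MYC peak in untreated cells only (7.84%), 1 in both and 4 with RANKL only. In 1 list only were thus 8 of 9 (88.9%, 51.8 to 99.7), an interval that holds the 69.5% of all MYC-bound genes. The untreated set held Eif1a at 135, Eif5a (the hypusine-bearing elongation factor) at 171, and Eif3b and Eif3a (subunits of the scaffold eIF3) at 186 and 208. The RANKL set held Eif1ad at 28, Eif4a1 at 45, Eif4g1 at 171 and Eef1e1 at 239. Eif1ad and Eef1e1 were counted as members of the list, and whether they act as translation factors was not tested. Eif4a1, whose product works with that of Eif4g1 in the cap complex, had a second RANKL-only peak at rank 211, over its start. MAX at Eif4g1 ranked 1624 untreated and 411 with RANKL, and at Eif5a 1987 and 368. Aminoacyl-tRNA synthetases gave Vars and Lars2 in untreated cells only, Ears2 in both and Yars with RANKL only, of 39. In either list MYC was thus at 10.3% of them and at 17.6% of the translation factors, against 1.60% of all genes.

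Genes of nucleotide, one-carbon and polyamine synthesis had MYC at 2, 2 and 3 of 40 genes in untreated cells only, in both lists and with RANKL only. In either list that was 17.5% (7.34 to 32.8), against 1.60% of all genes. Polyamine synthesis was divided, with Srm untreated-only at 88 and Odc1 RANKL-only at 185. Ctps and Nme2 (a nucleoside diphosphate kinase, rank 202) were RANKL-only, Nme1 next to it was shared at 56 and 140, Mat2a (the S-adenosylmethionine synthase) shared at 289 and 189, and Atic (of purine synthesis) untreated-only at 196. In glycolysis and related sugar metabolism, 2 of 31 were shared (G6pc3 and Hk2) and Pkm, pyruvate kinase, was RANKL-only at 276. These make 9.68% of that list (2.04 to 25.8). Ldha, lactate dehydrogenase, carried a shared peak at 271 and 143. It lay over an annotated start inside the outer bounds of the gene, so it does not enter the count.

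**Figure D5:**
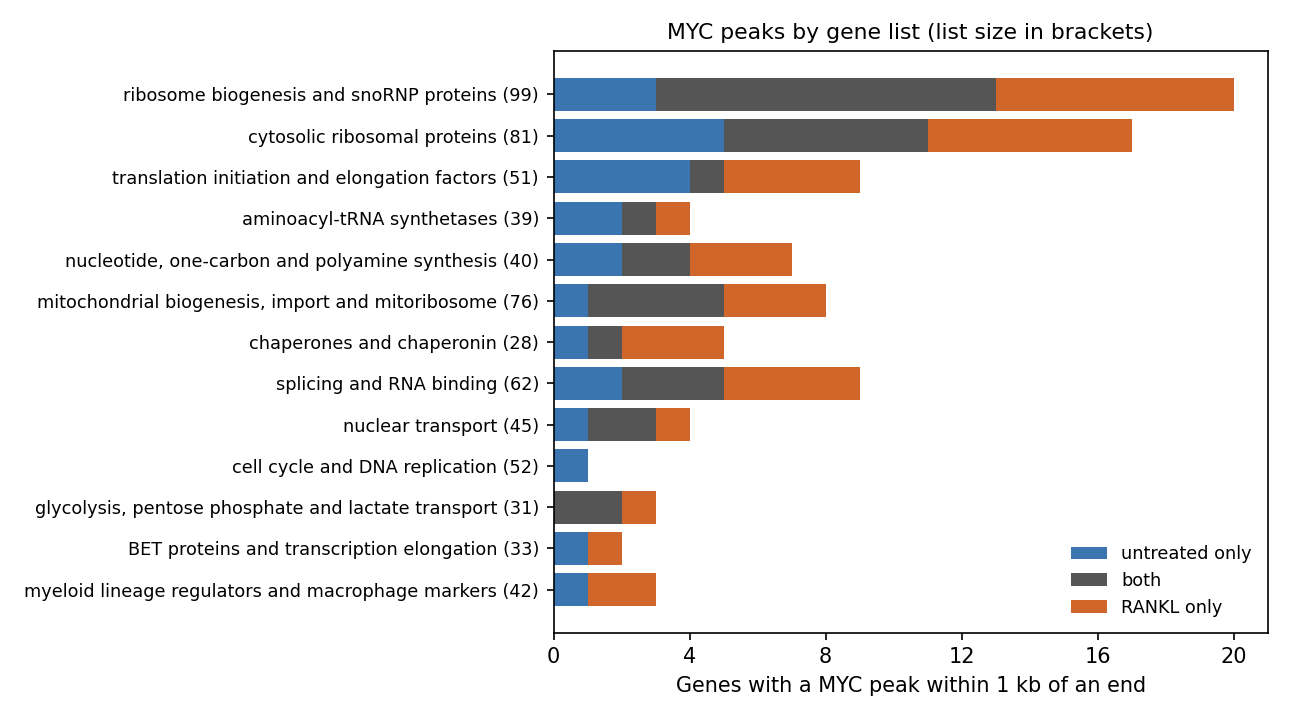
Bars give the number of genes of each list with a MYC peak within 1 kb of an end, coloured by whether it was listed in untreated cells only, in both or with RANKL only, with the list size in brackets and lists without any such gene left out. Ribosome biogenesis genes and cytosolic ribosomal proteins hold the longest bars, 20 and 17 genes, and both contain all 3 colours.

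Of 76 mitochondrial genes, 1, 4 and 3 had MYC at an end in the 3 classes. Shared were Pprc1 (a PGC-1-related coactivator) at 38 and 14, Mtg1 (a mitoribosome GTPase) at 91 and 15, and Hspd1 with Hspe1, which share their peaks. RANKL-only were Timm9 at 118, Mrpl23 at 151 and Twnk (the mitochondrial DNA helicase) at 159, and Mrpl1 was untreated-only at 247. Chaperones had 1, 1 and 3 of 28, with the chaperonin subunits Cct7 and Cct8 RANKL-only at 240 and 218, Cct3 untreated-only at 306 and Hspa8 RANKL-only at 245. Splicing and RNA binding genes had 2, 3 and 4 of 62, among them Ptbp1, Sf3b3, Srsf6 and Snrpe with RANKL only and Srsf2 and Srsf3 in untreated cells only. Nuclear transport genes had 1, 2 and 1 of 45: Nup188 (a nuclear pore protein) untreated-only at 174, Ran and Xpot (the tRNA exporter) shared, and Kpnb1 (importin beta) RANKL-only at 184. Each class holds 1 to 4 genes in these lists, too few to set one class above another.

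Of 42 regulators and markers of the myeloid lineage, 3 had MYC at an end (7.14%, 1.5 to 19.5), against 1.60% of all genes. Klf4 was untreated-only at rank 218, and Spi1 (PU.1) and Cebpa were RANKL-only at 235 and 252. MAX under the MYC peak ranked 159 untreated and 472 with RANKL at Klf4, 2717 and 742 at Spi1, and 711 and 533 at Cebpa. The highest-ranked MAX peak at an end of Spi1 stood elsewhere in untreated cells, at 691, so by gene its MAX rank was 691 and 742. Inside genes, Tlr2 (a receptor for bacterial lipoproteins) had a shared peak at ranks 15 and 105 and Cx3cr1 (the fractalkine receptor) a RANKL-only peak at 102. Of 33 genes for BET proteins and transcription elongation, 2 had MYC at an end (6.06%, 0.743 to 20.2). Brd2 was RANKL-only at 170 and Cdk7 untreated-only at 187. Among 52 cell cycle and replication genes Ccnd1 was the only one with a peak at an end. That share (1.92%, 0.0487 to 10.3) is close to the 1.60% of all genes.

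Genes of the osteoclast programme had no MYC peak at an end in either list. That was 0 of 41 genes, Nfatc1, Acp5 and Ctsk included, which allows a share of up to 7.32%, while MAX was at 13 of them untreated (31.7%) and at 19 with RANKL (46.3%), against 23.7% and 27.8% of all genes. NF-kB and inflammatory genes likewise had 0 of 40 (up to 7.5%), with MAX at 17 (42.5%) and 25 (62.5%), lysosome and autophagy genes 0 of 42, circadian clock genes 0 of 19 and the MYC and MAX network 0 of 13. These limits lie far above the percentages of all genes, so a lower share than elsewhere was not detectable. Lymphocyte, neuronal and fibroblast markers had 0 of 20 each, and MAX stood at no more than 2 of any of these lists.

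Inside genes the highest shared peaks lay in Zc3h7a (ranks 6 and 13), Cmss1 with Filip1l (11 and 20), Gtf2ird2 (14 and 34) and Cdk8 (46 and 40), followed by Bin1, Cox5a, Larp1, Tlr2, Tex14 and Peak1. At Gtf2ird2 and Cox5a (a subunit of cytochrome c oxidase, 96 and 11) the peak lay over an annotated start inside the outer bounds of the gene. The highest untreated-only ones were in Tex14 (32), Cipc (37, an inhibitor of CLOCK), Noc2l (39 and 53), Rere (65) and Dlgap4 (73), then Nudt9, Zfp710, Plcb4 and Rptor. The highest RANKL-only ones were in 3110082I17Rik (27), Dazap1 (52), Morf4l2 (58), Adh5 (72) and Atxn1 (80), then Slc19a1, Cx3cr1, Tspan4, Atxn2l and Tfap4. The peaks in Nudt9 and Tspan4 also lay over an annotated start. Over all places, 53 of 149 shared, 48 of 163 untreated-only and 49 of 152 RANKL-only peaks covered an annotated start. Of these, 47, 37 and 45 were at a gene end. Rptor, the mTORC1 scaffold, held an untreated-only peak at rank 102 (chr11:119856807-119857003) and a RANKL-only peak at rank 237 (chr11:119863454-119863735), with MAX in both lists at each.

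Away from protein-coding genes, MYC stood beside microRNA genes that are known for their part in growth control. The miR-17-92 cluster, a classical MYC target, had a shared peak 1018 bp before Mir17 that ranked 5 in untreated cells (chr14:115042069-115042652) and 104 with RANKL. A further untreated-only peak of rank 249 lay between them (chr14:115042705-115042934), 736 bp before Mir17, so the untreated cells had 2 peaks here and the RANKL cells 1. MAX held rank 149 in both MAX lists at this place. Let-7i, of a family that represses growth genes, had a shared peak that ranked 260 untreated (chr10:122986303-122986631) and 86 with RANKL, with MAX at 707 and 787. The microRNAs were named after their peaks were seen. Their main mature forms are shown because they are what these loci produce, from RefSeq (GRCm38.p6) with the seed, bases 2 to 8, in capitals. The first 6 come from chromosome 14 and miR-17 with miR-20a and miR-19a with miR-19b share a seed.
miR-17-5p: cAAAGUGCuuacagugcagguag
miR-20a-5p: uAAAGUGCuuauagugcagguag
miR-18a-5p: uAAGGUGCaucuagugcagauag
miR-19a-3p: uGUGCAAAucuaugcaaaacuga
miR-19b-3p: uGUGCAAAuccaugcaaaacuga
miR-92a-3p: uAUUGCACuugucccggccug
let-7i-5p: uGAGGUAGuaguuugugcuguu

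Of all genes with a MYC peak in 1 list only, 3 had a MAX peak at an end in just 1 of the MAX lists, and all 3 were untreated-only. Hmbox1 and Ints9 share a peak of rank 232 (chr14:64949864-64950017) with MAX at 9431 in the RANKL list. Lars2, the mitochondrial leucyl-tRNA synthetase, had rank 61 (chr9:123461805-123462160), where no MAX peak overlapped, and MAX of rank 7414 elsewhere at its ends in the untreated list. Of the 123 untreated-only genes 3 had MAX in neither list.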

How the data were processed

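Peak lists from MYC and MAX ChIP-seq in RAW264.7 cells were used, with 1 library per antibody and treatment. Sample titles gave the groups. Per the submitters' processing notes, the tools included MACS2 2.1.1.20160309, Bowtie2 2.3.4.1 and FastQC, and the genome build was mm10 (GRCm38). Calling thresholds and the use of input were not given in the sources used here. Per peak, the deposited score in column 5 is the authors' own value for a peak and served only to rank peaks within a list. Every row joins calls from 3 sets numbered 3, 5 and 7, whose nature the labels do not state. Starts were raised by 1, to count from 1.

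Overlap meant 1 bp, and a gene end the 1 kb around either annotated end of a protein-coding gene (GRCm38.p6 gene table, 21883 genes, no strand). Starts with strand came from the RefSeq promoter table, in which chromosome 18 was not used here. No list of high-signal regions was applied. The overlap code was tested on simulated data against bedtools. Of 895 list entries 894 matched. The members and lists were chosen with earlier results of these data known. Named genes are those at the ends of, or around, the 10 highest peaks of each class, list members with a peak at an end, neighbours that share a peak, and genes with MAX in 1 list. Other names were picked after their values were seen. Some list members are not reported here. Alternatives covered overlap, score, window, peak number and whole gene bodies. Software was Python 3.11.15, pandas 2.3.3, numpy 2.4.6, matplotlib 3.10.9 and scipy 1.17.1.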

Additional observations from a re-analysis of the deposited data

How the results depend on the processing

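No paired analysis was possible because each treatment has 1 library. Of 52 values recomputed for 14 results, 47 stayed within the interval of the reported share or within 1.5 times the reported count. Gene-end shares moved with the window: untreated-only peaks gave 54.6% at 0.5 kb and 71.2% at 2.5 kb, and RANKL-only peaks 70.4% at 2.5 kb. With MAX peaks above the median score alone, 91.3% of shared peaks had MAX in untreated cells, against 97.3%. Without the 6 paired RANKL-only peaks that lack MAX, 96.6% of RANKL-only peaks had MAX with RANKL, against 92.8%. The untreated share listed again ran from 44.2% with a reciprocal overlap of 50% to 50.0% with a peak within 1 kb. Among the first 2000 places of either MAX list, 35.2% of untreated-only and 65.9% of RANKL-only regions stood nearer the top with RANKL. That setting, leaving out the paired peaks, leaving out chromosome Y with the Rn18s-rs5 locus, and adding annotated starts to gene ends were chosen after seeing the data. Read depth is unknown from these files, so no detection limit per place could be given.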

Other observations

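Genes for small RNAs of ribosome building and splicing also lay beside these peaks, and were named after their values were seen. Snhg15, a snoRNA host gene, held ranks 16 and 2 (chr11:6528431-6528943 in untreated cells), and Snhg17, another host, 63 and 83. Of the U3 snoRNA genes inside Tex14, which guide the first cuts of the ribosomal RNA precursor, Rnu3b3 had a shared peak at 55 and 75, Rnu3b1 at 133 and 179 and Rnu3b4 at 173 and 116, while that of Rnu3b2 was untreated-only at 32. Rnu5g, a U5 spliceosomal RNA gene, had an untreated-only peak at 69, and the host of Snord49a and Snord49b a RANKL-only peak at 137. The locus annotated as Rn18s-rs5 and AY036118 on chromosome 17 carried untreated peaks of rank 2 and 8 and 1 RANKL peak of rank 6 over both. MAX there ranked 339 of 8839 untreated and 2437 of 10889 with RANKL. In every class, 0 MYC peaks lay within 1 kb of an end of a gene annotated as ribosomal RNA. Copies of repeated genes can share reads, and how such reads were treated is not given in the sources used here.

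Some high-ranked shared MYC peaks had MAX in 1 list only. Those inside Zc3h7a, Cmss1 with Filip1l, Cdk8 and Peak1 overlapped a MAX peak in the untreated list only, at ranks 6951, 7286, 2740 and 8142 of 8839. Of the 8 shared peaks with MAX in 1 list, 6 also had a peak in the I-BET list of MYC, against 19 of the 139 with MAX in both, and 2 of the 8 were on chromosome Y. At Nudt13, ranks 7 and 41, MAX was in neither list.

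Members of the gene lists with a MYC peak inside the gene and none at an end numbered 16. Npm1 (nucleophosmin) was shared at 113 and 84, Hnrnpu at 264 and 165 and Eno3 at 77 and 156. With RANKL only came Nat10 (an RNA acetyltransferase) at 178, Hnrnpf at 160 (over an annotated start) and E2f3 at 234. Those in untreated cells only included Pom121 at 109, Pabpc1 at 213, Rpl17 at 267, Xpo4 at 274 and Nup210 at 275.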
